A study of Rattus norvegicus with 26 samples.

Results

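The genes described here are 7 members of the interferon response, B2m, Ifitm3, Mx2, Stat2, Irf1, Irf7 and Irf9, measured in the hippocampus of aging rats. The rule took them by name, as genes whose symbol stood alone on a probe set of the deposited table, and all 7 were found among 14506 genes, each on 1 probe set. The rats were male Fisher 344 animals aged 18 months that had eaten a purified diet for 5 to 6 months with vitamin D3 at 100 IU per kg (low, 8 rats), 1000 IU per kg (control, 9 rats) or 10000 IU per kg (high, 9 rats). Of the low-diet samples 1 had failed RNA quality control and was not arrayed, per the study's design. Total RNA of the hippocampus of each rat was hybridised to 1 Affymetrix Rat Gene 1.0 ST array, so replicates are separate animals, and rats are called by their subject numbers, 1 to 26. The comparison asked whether the amount of dietary vitamin D3 went with a different level of these genes. Values are log2 intensities made by the authors, in which a difference of 1 is a doubling of the signal. The intensity of a probe set also depends on its probes, so levels were compared between rats and not between genes.

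Interferons are signalling proteins that cells release on infection, and the brain answers them mainly through microglia, astrocytes, endothelium and neurons. Type I interferons bind the receptor chains Ifnar1 and Ifnar2, and the kinases Jak1 and Tyk2 then activate Stat2, which joins Irf9 in a complex that binds the interferon-stimulated response element (ISRE). Interferon gamma binds Ifngr1 and Ifngr2 and acts at the gamma-activated site (GAS). Irf1 and Irf7 are transcription factors that are themselves induced and extend the response, Ifitm3 and Mx2 are among the induced genes, and B2m is the light chain of MHC class I molecules.

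The promoter windows of the members were searched for the letters of both elements. RefSeq windows of build GRCr8, with 250 bases before and 50 after the gene start, were found for 6 of the 7 members, all but Mx2. The ISRE core, written as GAAA, any 2 bases and GAAA on either strand, was present in 3 of these 6 windows and in 3.92% of 33469 windows of the same length. The letters TTCNNNGAA (the GAS pattern, which reads the same on both strands) were present in 3 of 6 and in 8.87% of all windows. Stretches around the matches are printed 5′ to 3′ on the strand of the gene, with the match in capitals.
B2m, ISRE core, chr3:129549155-129549214, plus strand: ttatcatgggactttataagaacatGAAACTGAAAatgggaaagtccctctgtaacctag
Ifitm3, ISRE core, chr1:205541768-205541827, minus strand: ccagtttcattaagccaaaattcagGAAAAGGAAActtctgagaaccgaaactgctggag
Irf7, ISRE core read on the opposite strand, chr1:205800058-205800117, minus strand: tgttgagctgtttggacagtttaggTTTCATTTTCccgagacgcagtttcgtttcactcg
Irf1, GAS, chr10:38417768-38417826, plus strand: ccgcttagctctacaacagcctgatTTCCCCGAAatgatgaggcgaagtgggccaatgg
Irf9, GAS, chr15:33065712-33065770, plus strand: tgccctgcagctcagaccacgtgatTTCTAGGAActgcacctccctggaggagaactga
The match lay 150 bases before the gene start in B2m, 44 in Ifitm3, 69 in Irf7, 142 in Irf1 and 99 in Irf9. Ifitm3 also held the GAS letters, 33 bases before its start, inside the printed stretch, and the window of Stat2 held neither pattern. Among 41 interferon-induced genes with a window, 25 (61.0%) held the ISRE core, as did 8 of 17 genes of MHC class I presentation (47.1%). A match is a description of letters and not of binding.

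The arrays were alike in scale, with medians between 6.92 and 6.96, and each array's mean r with the remaining arrays was 0.997 to 0.999. The 6 markers of hippocampal neurons (Prox1, Wfs1, Zbtb20, Fibcd1, Neurod2 and Neurod6) had means between 10.08 and 12.04, each above the mean of at least 80.3% of all genes. Control rat 17 and high rat 19 stood apart in these markers, with list means of 11.07 and 10.95, against 11.27 to 11.46 in the other control rats and 11.27 to 11.42 in the other high-diet rats. The file holds no detection calls. Of the members, Irf1 and Irf7 had means below the median of all probe sets, so whether their signal stood above background is unknown.

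Stat2 and Irf9, which take part in the complex that answers type I interferon, did not pass the test in any comparison of diets. Stat2 (probe set 10893067, gene on chromosome 7) had a lowest, median and highest value of 8.61, 8.70 and 8.86 on the low diet, 8.53, 8.77 and 8.84 on the control diet and 8.58, 8.71 and 8.81 on the high diet. The 3 groups overlapped almost fully, and the lowest of all 26 values was that of control rat 12. Irf9 (10780433, chromosome 15) had 8.84, 9.03 and 9.16 on low, 8.76, 9.05 and 9.20 on control and 8.65, 8.99 and 9.10 on high, in the same order of lowest, median and highest. Its 2 lowest values belonged to high rat 19 and control rat 17, the rats with low hippocampal neuron markers. The mean of Irf9 was 8.95 ± 0.14 on high, against 9.05 ± 0.14 on control (SD, n = 9 each), a difference of -0.094 log2 (SE 0.058) that did not pass the test in limma (adjusted p = 0.998). It was -0.056 without high rat 19 and -0.13 without control rat 17.

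The transcription factors Irf1 and Irf7 likewise did not pass the test in any comparison of diets. Irf1 (10733553, chromosome 10) had a lowest, median and highest value of 5.69, 5.89 and 6.21 on low, 5.80, 5.91 and 6.02 on control and 5.73, 5.89 and 6.15 on high. The low-diet rats spread widest, with both the lowest value (rat 8) and the highest (rat 5) of all rats. Irf7 (10726758, chromosome 1) had 6.48, 6.55 and 6.83 on low, 6.55, 6.65 and 6.75 on control and 6.58, 6.70 and 6.78 on high. Its medians stood in the order of the doses, but low rat 8 had the highest value of all 26 rats and the groups overlapped. Irf7 averaged 6.68 ± 0.06 on high (SD, n = 9) and 6.59 ± 0.12 on low (SD, n = 8), a difference of +0.086 log2 (SE 0.040, 95% interval 0.0042 to 0.17, a ratio of 1.06). The unadjusted p of limma was 0.0401 and the adjusted p 0.852, so this difference did not pass.

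The effector genes Ifitm3, Mx2 and B2m did not pass in any comparison of diets either. Ifitm3 (10726682, chromosome 1), a membrane protein that hinders the entry of viruses, had a lowest, median and highest value of 8.96, 9.19 and 9.48 on low, 8.91, 9.10 and 9.46 on control and 8.97, 9.20 and 9.51 on high. Its spread within a diet was 0.18 log2 (residual SD), larger than that of 97.9% of the 1000 genes nearest in intensity. Mx2 (10750524, chromosome 11), a dynamin-like GTPase of the antiviral response, had 7.19, 7.37 and 7.60 on low, 7.22, 7.45 and 7.61 on control and 7.24, 7.42 and 7.58 on high. B2m (10839232, chromosome 3) had 12.86, 12.96 and 13.25 on low, 12.83, 12.98 and 13.02 on control and 12.95, 12.97 and 13.08 on high. Low rat 5 alone set the wide range of B2m on the low diet, since the other 7 low-diet rats lay between 12.86 and 13.00.

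**Figure D1:**
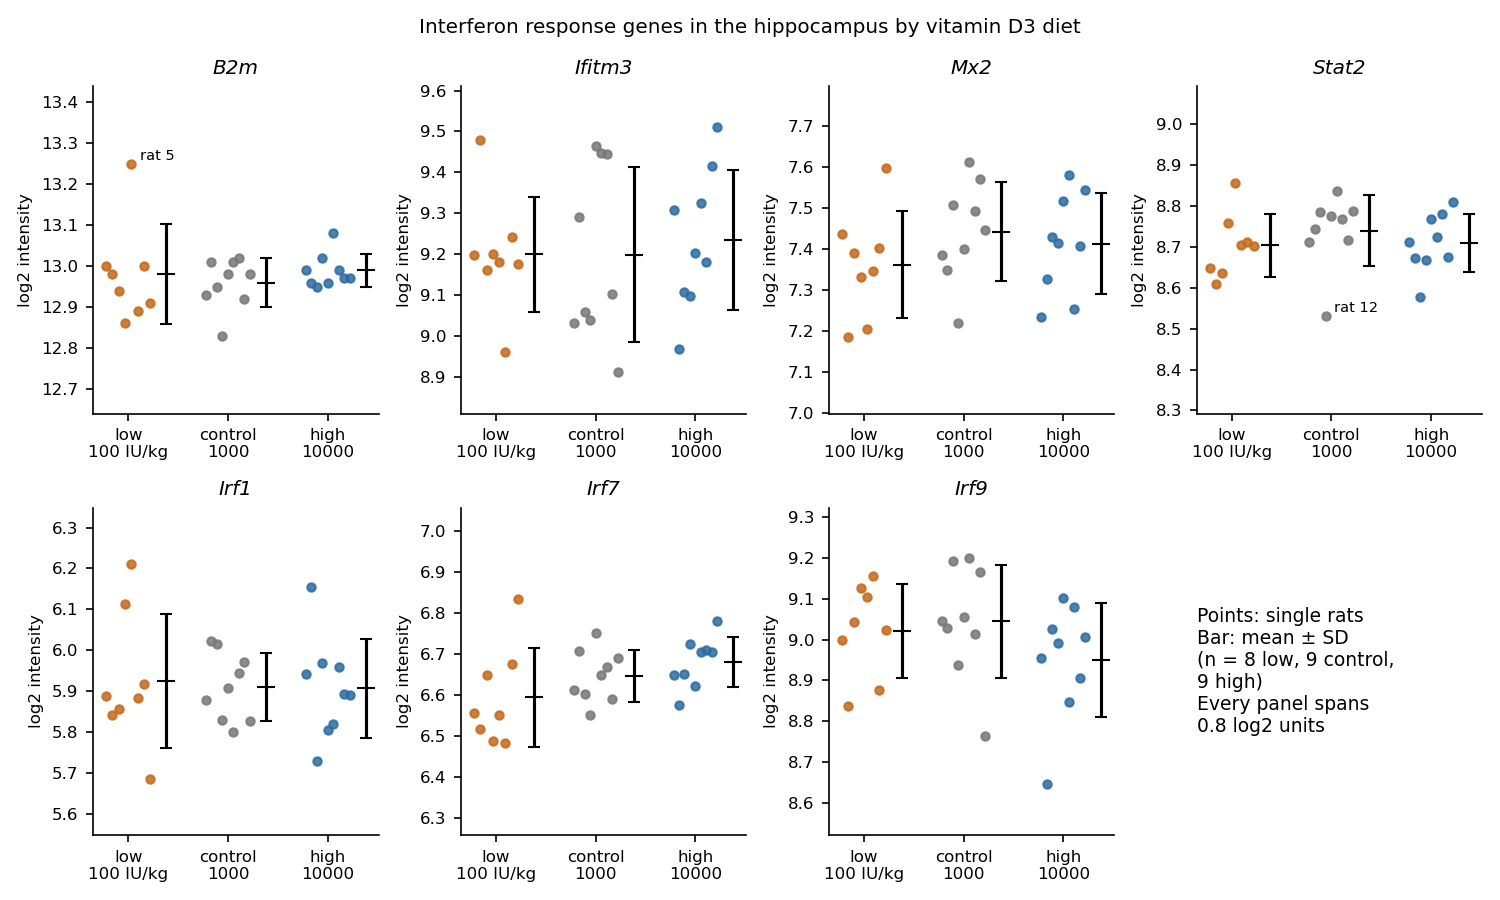
Log2 intensity (y axis, 0.8 units in every panel) of the 7 genes in single rats on the low, control and high vitamin D3 diets (x axis), with the mean and SD of each diet beside the points (n = 8, 9 and 9). The diets overlap in every panel, and the rats named are low rat 5 in B2m (13.25) and control rat 12 in Stat2 (8.53).

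Across the 3 diets 0 of the 7 members were called by the moderated F-test of limma at an adjusted p under 0.17, the threshold named by the study, against 0.0% of 14506 genes. At an unadjusted p under 0.05 there were 0 members, against 4.31% of all genes, and the ordinary 1-way test gave 0 at both levels. Between the high and low diets 0 members were called, against 0.0% of genes, and 1 member (Irf7) had an unadjusted p under 0.05, against 5.83% of genes. Between high and control, and between low and control, 0 members were called and 0 had an unadjusted p under 0.05, against 0.0% called in each and 4.47% and 3.12% of genes under 0.05. In 0 of 7 members were the rats of 2 diets separate without overlap, in any of the 3 pairs, against 0.00689% of genes between high and low and 0.0% in the other pairs. The 3 pairs share arrays, so their values are not independent.

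The intervals give the size of difference that these arrays left room for. Between high and low 5 of the 7 differences were above 0, against 52.6% of all genes, between high and control 3 of 7 (54.2%), and between low and control 3 of 7 (50.9%). Between high and low the differences ran from -0.070 log2 (SE 0.060) in Irf9 to +0.086 in Irf7, with B2m at +0.0091 (SE 0.038), Ifitm3 at +0.036 (SE 0.080), Mx2 at +0.051 (SE 0.057), Stat2 at +0.0061 (SE 0.038) and Irf1 at -0.018 (SE 0.057). Between high and control they ran from -0.094 in Irf9 to +0.036 (SE 0.077) in Ifitm3, and between low and control from -0.081 (SE 0.057) in Mx2 to +0.020 (SE 0.038) in B2m. Over the 21 differences the lowest end of a 95% interval was a ratio of 0.863 (Irf9, high over control) and the highest end was 1.15 (Ifitm3, high over low). A linear trend over log10 dose gave Irf7 a slope of +0.043 log2 per 10-fold dose (SE 0.020, adjusted p = 0.824 in limma), and it called 0 of the 7 genes.

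**Figure D2:**
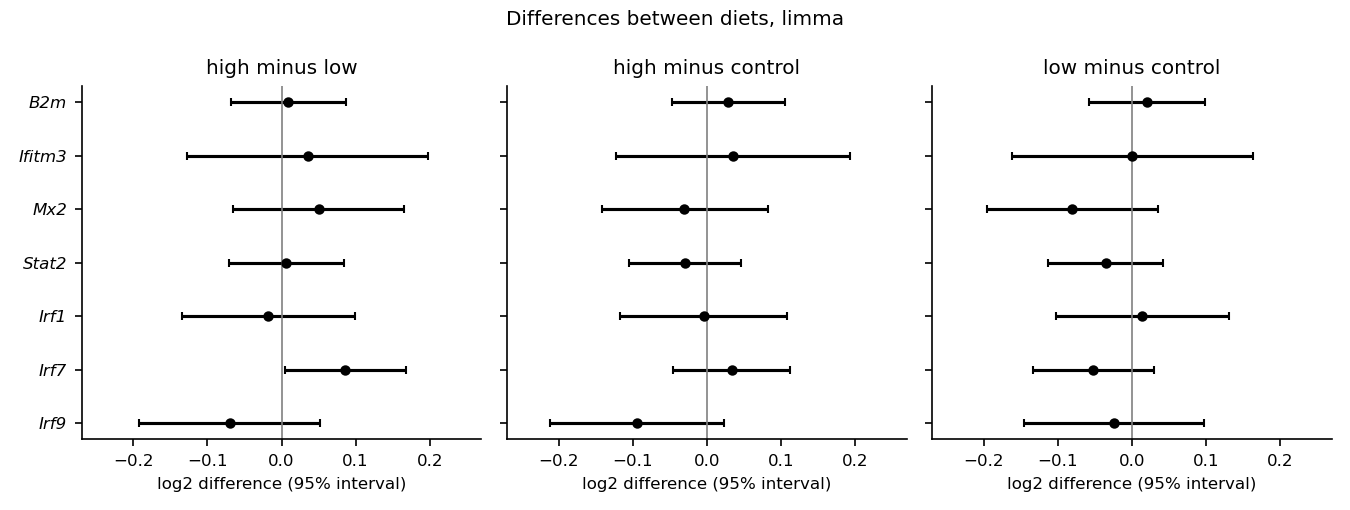
Differences between diets in log2 units (x axis) with 95% intervals from limma for the 7 genes (rows), with high against low at the left, high against control in the middle and low against control at the right. Of the 21 intervals, that of Irf7 between high and low (0.0042 to 0.17) leaves out 0, before adjustment for the genes tested.

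The wider pathway was taken from 6 lists of 142 genes in all, of which 104 were measured on a probe set with 1 symbol. The 5 measured ligand genes, among them Ifnb1 and Ifng, had means between 5.14 and 6.22, all below the median of all probe sets, so whether they stood above background is unknown. The means of the 4 measured receptor chains, 8.48 to 10.84, were at or above that median. So were those of 14 of the 52 measured induced genes and 10 of the 19 genes of class I presentation. For the rest of these 2 lists it is unknown whether the signal stood above background, which limits the counts and list means below. Of the 104 genes 0 were called in any of the 3 comparisons of limma. At an unadjusted p under 0.05, 3 were higher and 5 lower on high than on low (7.69%, against 5.83% of all genes), 0 were higher and 2 lower on high than on control (1.92%, against 4.47%), and 1 was higher and 2 lower on low than on control (2.88%, against 3.12%). The median difference of the 104 genes was -0.0070 log2 between high and low, -0.0051 between high and control and -0.0017 between low and control, against +0.0024, +0.0038 and +0.00076 over all genes. With low rat 5 and control rat 12 left out, a choice made after seeing the data, 0 were called. The numbers under 0.05 were then 4 higher and 1 lower between high and low (4.81%, against 5.14% of all genes). Between high and control they were 1 higher and 3 lower (3.85%, against 5.14%), and between low and control 0 higher and 7 lower (6.73%, against 3.01%). The median differences were +0.0098, -0.0086 and -0.024 in the same order, against +0.0027, +0.0024 and -0.00065 over all genes. Rat 5 stood high in many of these genes and rat 12 low in many. Leaving them out therefore tends by construction to raise high minus low and to lower high minus control and low minus control. The counts and medians without these rats are thus no support for a difference between diets. Of the 6 endothelial markers, Cldn5 (-0.097), Esam (-0.13) and Abcb1a (-0.12) were lower on high than on control at an unadjusted p under 0.05 with an adjusted p of 0.998 in limma, and the part of endothelium in the pathway values was not tested.

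The pathway genes with the smallest p between high and low were Irf3, Gbp5 and Rsad2. Irf3, the factor that switches on interferon genes once viral nucleic acid is sensed, averaged 8.74 ± 0.08 on high (SD, n = 9), against 8.86 ± 0.11 on low (SD, n = 8), a difference of -0.12 log2 (SE 0.046, adjusted p = 0.852 in limma). Gbp5, a guanylate-binding protein induced by interferon gamma, differed by -0.15 (SE 0.064). Its highest low-diet value, 6.92, was that of rat 5, and without that rat the difference was -0.097 (adjusted p = 0.916 in limma). Rsad2, the antiviral protein viperin, differed by +0.088 (SE 0.037). Between high and control the smallest p belonged to Tap2, a peptide transporter of class I presentation (-0.13, SE 0.055), Dtx3l (-0.070, SE 0.034) and Oas1i, of the oligoadenylate synthetase family (+0.086, SE 0.043). Between low and control it belonged to Bst2, known as tetherin (-0.076, SE 0.035), Lgals9, or galectin-9 (-0.13, SE 0.060), and Socs1, an inhibitor of Jak kinases (+0.070, SE 0.034). The adjusted p of these genes was 0.998 between high and control and 1.0 between low and control in limma, so none passed.

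In each of the 7 members a single rat stood further from the rest of its diet than any of the 3 diet means stood from another. The farthest of 8 or 9 rats is here set against differences of means, so this is likely in most genes. Its share over all genes was not counted, and it is no trait of the members. In Irf9, for example, high rat 19 differed by -0.34 log2. The rule that follows marked a rat only in B2m and Stat2. A rat was marked when its gap to the nearest other rat, divided by the range of its diet, was over Dixon's 95% critical value for that number of rats. B2m was 13.25 in low rat 5, against 12.94 ± 0.06 in the other 7 low-diet rats (SD), a difference of +0.31 log2 or a ratio of 1.24, with a Dixon ratio of 0.634. Its cage mate, rat 6, had 12.89. Stat2 was 8.53 in control rat 12, against 8.77 ± 0.04 in the other 8 control rats (SD), a difference of -0.24 log2 or a ratio of 0.85, with a Dixon ratio of 0.587, and cage mate rat 13 had 8.77. A marked rat was found in 1 of 7 members on the low diet (7.67% of all genes), 1 of 7 on the control diet (9.03%) and 0 of 7 on the high diet (7.42%). With 7 genes these counts are near the background, so they are no result about the members as a group.

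Low rat 5 was also above every other low-diet rat in Stat2 (8.86, against 8.61 to 8.76) and Irf1 (6.21, against 5.69 to 6.11). It lay within their range in Irf9 (9.10), Ifitm3 (9.18), Irf7 (6.55) and Mx2 (7.20, against 7.19 to 7.60). Thus 3 of the 7 members were at the top in this rat, against 10.4% of all genes, and Mx2 was near the bottom. The 3 include B2m, by which the rat was marked.

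The wider pathway was high in the same rat. Of the 104 pathway genes 40 were higher in rat 5 than in the other 7 low-diet rats (38.5%) and 4 were lower (3.85%), against 10.4% and 11.5% of all genes. The highest difference was in Ifi47, a GTPase of the interferon gamma response, with 8.94 in rat 5, against 6.91 to 7.62 in the other low-diet rats (+1.70 log2, a ratio of 3.26). Lgals3bp, a secreted glycoprotein, was 9.51, against 8.40 to 8.75 (a ratio of 2.00), and Mx1, the antiviral paralog of Mx2, was 6.04, against 5.00 to 5.28. The mean of Mx1 over all rats was above that of only 6.23% of genes, so no ratio is given for this dim probe set. In all 3 genes the value of rat 5 was above those of all 25 other rats, whose highest were 7.62, 8.83 and 5.57. The cage mate, rat 6, had 7.16, 8.40 and 5.15.

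By role, rat 5 held the highest low-diet value in 20 of 52 induced genes, 8 of 19 genes of class I presentation and 7 of 15 transducers and sensors. It did so in 3 of 4 receptor chains, by ratios of 1.07 to 1.08 to the mean of the others, and in 1 of 5 ligands and 1 of 9 inhibitors. Over all genes the share was 10.4%. In the other 25 rats the number of induced genes at the top of their own diet was at most 13, in high rat 24. Of the class I genes, Psmb9, an immunoproteasome subunit chosen here after its values were seen, was 7.45 in rat 5, against 6.58 to 6.95 (a ratio of 1.55). The mean of Psmb9 over all rats was below the median of all probe sets. The lowest differences were in Herc6 (8.38, against 8.50 to 8.95), Nmi (6.03, against 6.07 to 6.36) and RT1-M3-1 (7.51, within 7.43 to 7.88), so not all induced genes were high. Without rat 5 the difference of B2m was +0.048 between high and low, against +0.0091 with it, and -0.019 between low and control, against +0.020 with it, and neither passed.

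Microglial markers moved with the pathway in rat 5, and in bulk tissue more cells of a type and more RNA per cell cannot be told apart. The mean of the 8 measured markers was 9.38 in rat 5, against 8.86 to 9.10 in the other low-diet rats. Against 10.4% of all genes, 5 of the 8 markers were above all of these rats. C1qa, a complement subunit, had a ratio of 2.18 to their mean, the integrin Itgam 1.70, Aif1 (Iba1) 1.45, the receptor Csf1r 1.23 and the fractalkine receptor Cx3cr1 1.22. Itgam and Aif1 had means over all rats below the median of all probe sets, so whether they stood above background is unknown. Tmem119 had a ratio of 1.20 within their range, while P2ry12 and Trem2 were at 1.01 and 0.983. Of the 7 markers of T cells Cd4, which rat microglia and macrophages also carry, was 9.83, against 8.73 to 9.61, and Cd8b was 5.55, against 5.29 to 5.49. The T-cell receptor genes Cd3e (7.35), Cd3d (5.29) and Cd3g (5.13) were within the range of the others. Of the 5 markers of neutrophils and monocytes, Plac8 was 6.79, against 5.04 to 5.21 in the other low-diet rats, a dim probe set for which no ratio is given. Lyz2 was below the other low-diet rats with a ratio of 0.83. The part of these cells in the high interferon genes was not tested.

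Control rat 12 was low in several of these genes. It was below every other control rat in Stat2, in B2m (12.83, against 12.92 to 13.02), in Mx2 (7.22, against 7.35 to 7.61) and in Irf7 (6.55, against 6.59 to 6.75), and within their range in Ifitm3, Irf1 and Irf9. Of the 104 pathway genes 26 were below the other 8 control rats (25.0%, against 14.0% of all genes) and 9 above them (8.65%, against 8.79%). The lowest differences were in Rtp4, an interferon-induced transporter protein (6.12, against 6.46 to 6.75, a ratio of 0.685), the class I gene RT1-CE16 (6.95, against 7.28 to 7.49, a ratio of 0.75) and Usp18, an inhibitor of the type I receptor (5.46, against 5.60 to 5.96). The means of Rtp4 and Usp18 over all rats were below the median of all probe sets. Ifng, Isg20 and Ifit2 had the highest differences, +0.19, +0.17 and +0.14, with Ifng and Ifit2 inside the range of the other control rats and Isg20 (6.54) just above it. Of the 40 genes at the top in rat 5, 12 (30.0%) were among the 26 at the bottom in rat 12 (46.2% of these), near the 25.0% of all pathway genes at the bottom in that rat. The 8 microglial markers had a mean of 8.92 in rat 12, against 8.95 to 9.04 in the other control rats, and Aif1, Tmem119, Csf1r and C1qa were below all of these. Trem2 was above them (9.09, against 8.99 to 9.09), and Cx3cr1, P2ry12 and Itgam were within their range at ratios of 1.00, 0.996 and 1.00. Their part was not tested.

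**Figure D3:**
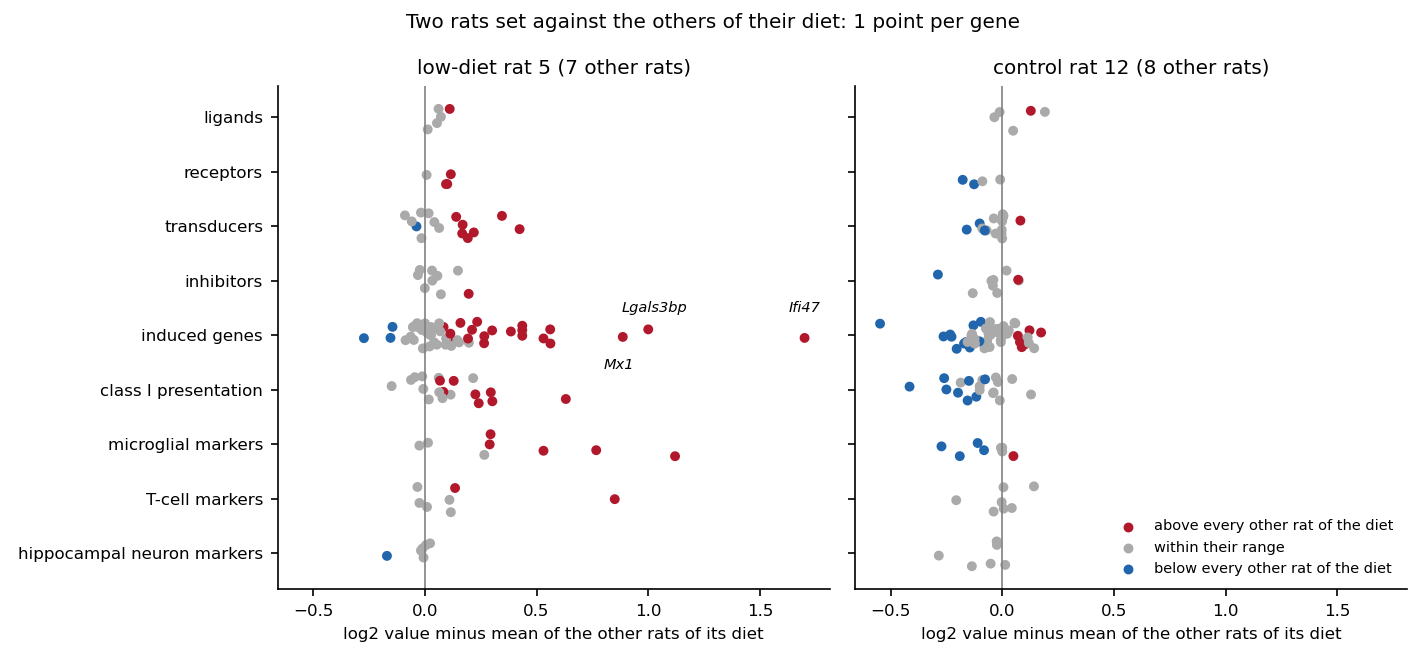
Log2 value of low rat 5 (left) and control rat 12 (right) minus the mean of the other rats on the same diet (x axis), with 1 point per gene in 6 lists of the interferon pathway and 3 marker lists (rows). In rat 5, 20 of 52 induced genes and 5 of 8 microglial markers are above every other low-diet rat (10.4% of all genes). In rat 12, 8 of 19 class I genes are below every other control rat (14.0% of all genes).

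The 7 genes did not vary as a single unit over the rats. After removal of the diet means, the Pearson r of the 21 pairs of members had a median of 0.23, with 14 pairs above 0 over 26 rats. These r values are descriptions, since cage mates share a cage and all arrays share scale and tissue composition. The highest was that of B2m with Stat2 (0.53), and it was -0.03 without rats 5 and 12. Mx2 and Irf7 had an r of 0.45, and 0.38 without these rats. Irf1 ran against Mx2 (-0.43) and Irf7 (-0.38), and these were -0.47 and -0.44 without both rats. The median over pairs was 0.08 in the remaining 24 rats. Among the 3 members with the ISRE core printed above, r was 0.34 for Ifitm3 with Irf7, 0.28 for B2m with Ifitm3 and 0.17 for B2m with Irf7, and 0.31, 0.43 and 0.31 without rats 5 and 12. Irf1 and Irf9, which hold only the GAS letters, had 0.00, and -0.11 without these rats. Pairs of 1 gene of each kind ran from -0.38 (Irf1 with Irf7) to 0.37 (B2m with Irf1, and -0.17 without these rats). Stat2, whose window held neither pattern, had 0.35 with Irf9, and 0.28 without these rats. Whether likeness goes with the promoter letters was not tested.

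**Figure D4:**
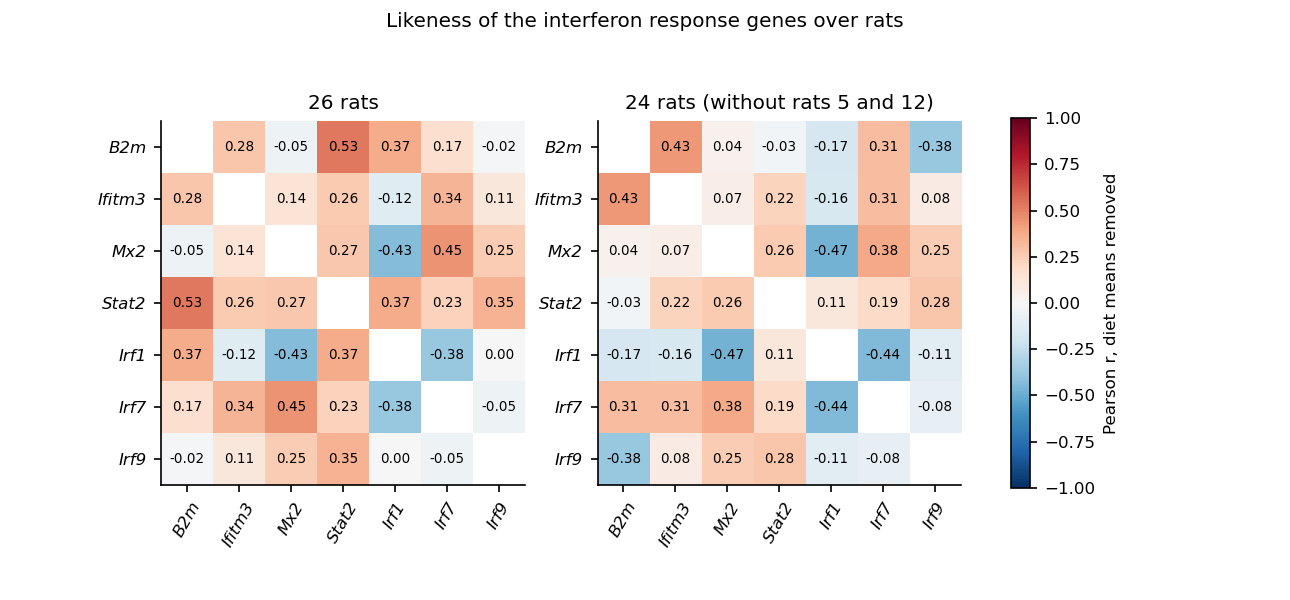
Pearson r between the 7 genes over rats after removal of diet means, over 26 rats (left) and over 24 rats without low rat 5 and control rat 12 (right). The r of B2m with Stat2 is 0.53 on the left and -0.03 on the right, while that of Mx2 with Irf1 is -0.43 and -0.47.

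Set against the mean of the 52 induced genes, which hold no member, B2m had a Pearson r of 0.82 and a Spearman rho of 0.66 over 26 rats, and r was 0.59 without rats 5 and 14, the farthest from the median of that mean, and 0.46 without rats 5 and 12. Within diets, with every rat kept, r was 0.89 on low, 0.82 on control and 0.23 on high. The value on low includes rat 5 and that on control rat 12, and neither was computed without that rat. Stat2 had an r of 0.62 with the same mean (rho 0.54, r 0.44 without rats 5 and 14, and 0.36 without rats 5 and 12). B2m also had an r of 0.69 with the microglial markers. It was 0.29 without rats 3 and 5, the farthest in that mean, and 0.06 without rats 5 and 12. In this paragraph the values without the farthest rats kept the diet means of all 26 rats. Those without rats 5 and 12 used diet means of the remaining 24 rats. The 2 kinds of value are thus not directly comparable.

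Irf9 had a higher r with the markers of hippocampal neurons than with any other list. Its r with the mean of the 6 markers was 0.85 (rho 0.72) over 26 rats and 0.69 without control rat 17 and high rat 19. Within diets, with every rat kept, r was 0.67 on low, 0.95 on control and 0.86 on high. The value on control includes rat 17 and that on high rat 19, and neither was computed without that rat. The r of Irf9 with single markers ran from 0.57 for Prox1, of dentate granule cells, to 0.83 for Wfs1, of the CA1 field. The other 6 members had an r between -0.17 and 0.33 with the same mean. Without control rat 17 and high rat 19 these ran from -0.26 for B2m to 0.41 for Stat2 and 0.46 for Mx2. Irf9 also had an r of 0.48 with the mean of the class I genes (0.49 without rats 5 and 12). With the meningeal and fibroblast markers its r was -0.54 (-0.60 without rats 17 and 19). With control rat 17 and high rat 19 left out, 0 members were called in any comparison of diets.

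**Figure D5:**
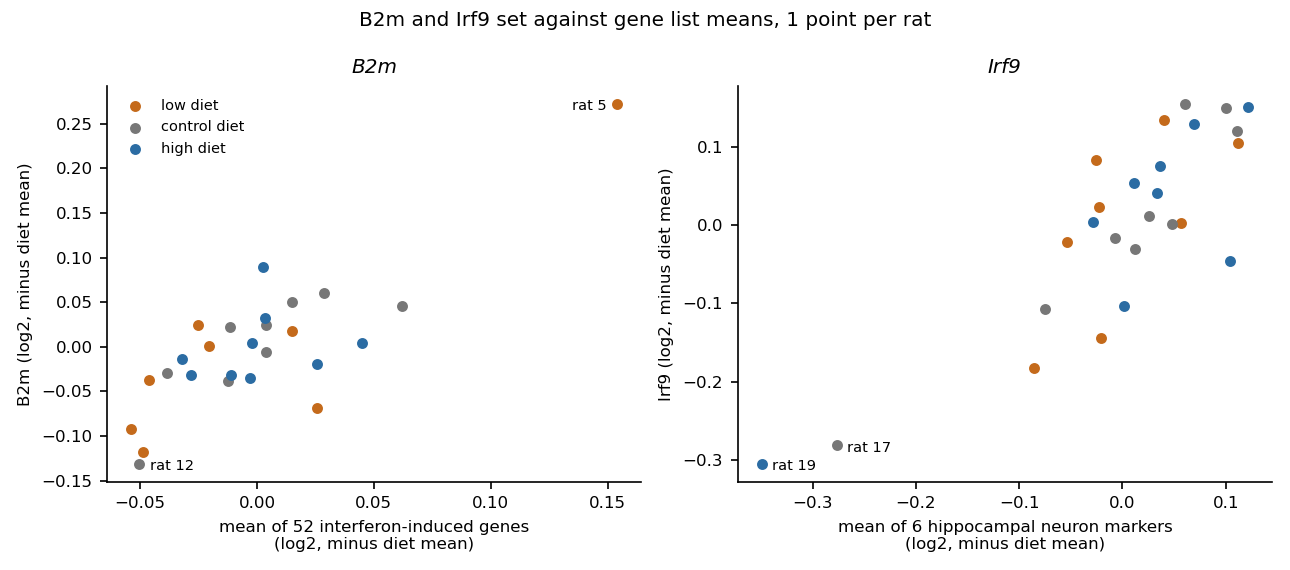
B2m against the mean of 52 interferon-induced genes (left) and Irf9 against the mean of 6 hippocampal neuron markers (right), both axes in log2 units with the diet mean removed and 1 point per rat, coloured by diet. Low rat 5 lies alone at the upper right of the B2m panel, and control rat 17 and high rat 19 lie at the lower left of the Irf9 panel.

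Of 8480 other genes with a mean at or above the median intensity, those most like the mean of the 7 members over 26 rats were Nbl1 (r = 0.74), Dnase2 (0.71), Tcn2 (0.70), Xylb (0.70) and Trappc10 (0.68). Without rats 5 and 12 these were between 0.54 and 0.70. For single members the most alike gene was Pld4 for B2m (0.79, and 0.34 without the same 2 rats), Scn3b, a sodium channel subunit, for Irf9 (0.87, and 0.92), Yju2b for Ifitm3 (0.76, and 0.78), Coq10a for Mx2 (0.76, and 0.69), Abcb8 for Stat2 (0.72, and 0.70), Mmp15 for Irf7 (0.70, and 0.69) and Dpysl5 for Irf1 (0.62, and 0.60). As the highest of many values, these r are larger than they would be for genes chosen beforehand.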

How the data were processed

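The authors deposited a table of log2 probe set intensities for 26 arrays, with 29214 probe sets and 0 missing values between 4.28 and 15.4. The submitters' processing notes name Partek 6.6 and GCRMA without saying what each did, and the values were used as deposited. Of the probe sets, 15310 had 1 gene symbol in the array annotation, 323 had several and 13581 had none. For 15279 of the first kind the gene ID was found in the RefSeq table of GRCr8.

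A gene with several probe sets was represented by that of highest mean, which left 14506 genes, and no intensity filter was applied. limma 3.58.1 in R 4.3.3 was fitted over all 26 arrays with the 3 diets as a factor. Tests were 2-sided, with Benjamini-Hochberg adjustment over all genes, and called under 0.17, the stricter of both false discovery rates in the study's design. The number of arrays limits the precision (median SE 0.038 log2 between high and low). The fit and the Dixon ratio were tested on simulated data.

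The members, lists and tests were chosen with earlier results of these data known. Named were the 7 members, the 3 pathway genes of smallest p in each comparison, the 3 highest and 3 lowest pathway genes of each marked rat and the genes of highest r.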

Additional observations from a re-analysis of the deposited data

Results flagged for a closer look

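Dixon's limit was applied to the 7 members and to 15 list means in each diet, 66 groups in all, and the limit is set so that chance passes it in about 1 of 20. On these arrays a single rat passed it in 7.67% of all genes on the low diet, 9.03% on control and 7.42% on high. It was passed by 2 of 21 member groups, B2m in low rat 5 (0.634) and Stat2 in control rat 12 (0.587), and by 9 of 45 list means, which share genes and rats and are not independent.

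In low rat 5 the means of the transducers (8.34, against 8.19 to 8.25 in the other low-diet rats, Dixon ratio 0.59), the induced genes (6.61, against 6.40 to 6.48, 0.618), the microglial markers (9.38, against 8.86 to 9.10, 0.542) and the neutrophil and monocyte markers (6.44, against 6.09 to 6.21, 0.661) were high. The last rested on Plac8, since the mean of the other 4 markers was 6.35, within 6.33 to 6.46. In control rat 12 the mean of class I presentation was low (7.70, against 7.78 to 7.85 in the other control rats, 0.535).

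The hippocampal neuron markers were low in control rat 17 (11.07, 0.52) and in high rat 19 (10.95, 0.681), where the meningeal and fibroblast markers were high (7.05, against 6.83 to 6.92 in the other high-diet rats, 0.595). In high rat 24 the mean of the neutrophil and monocyte markers was high (6.30, against 6.10 to 6.19, 0.521), and it too rested on Plac8 (5.75, against 5.06 to 5.30), since the mean of the other 4 was 6.43, within 6.33 to 6.47.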

How the results depend on the processing

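None of the 7 members was called in any comparison under 11 alternatives in processing, with 1 rat left out at a time, or with 2 pairs of rats left out, which were chosen after seeing the data, nor at thresholds of 0.05 or 0.31 in the reported fits. The smallest adjusted p of a member in limma was 0.261 (Irf7, high minus low, +0.12), after removal of values more than 2 SD from the mean of their diet, as the study's design did, and this is under the looser rate of 0.31. For Irf7 the value removed was that of low rat 8. Such removal narrows the spread within diets by its construction, so p-values after it tend to be too small. Of the 21 differences 16 kept their sign under every alternative other than single rats left out, and 13 did so with each rat left out. Those that turned were small. Irf1 turned to +0.0089 (high minus control) with arrays centred on their medians, and to +0.023 (high minus low) and -0.037 (low minus control) without rats 5 and 12. B2m low minus control turned to -0.035 with values over 2 SD removed and, likewise, without rats 5 and 12. Ifitm3 low minus control, +0.00042, turned to -0.023 with array weights, -0.00049 with the tail mark as a covariate, -0.017 without rats 5 and 12 and -0.036 without rats 17 and 19.

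With single rats left out, the ranges were -0.0077 to 0.048 (B2m), -0.0073 to 0.028 (Stat2) and -0.052 to 0.023 (Irf1) for high minus low, -0.035 to 0.018 (Irf1) for high minus control, and -0.019 to 0.037 (B2m), -0.039 to 0.034 (Ifitm3), -0.027 to 0.048 (Irf1) and -0.059 to 0.0020 (Irf9) for low minus control. Over all genes, 0 were called in the reported fits. With values over 2 SD removed, the counts were 15 in the F-test, 21 for high minus low, 10 for high minus control and 0 for low minus control. Without rats 17 and 19 there was 1 in the F-test and 1 for high minus control. With 1 rat left out the counts ran from 0 to 3 in the F-test and for high minus low, and from 0 to 1 for high minus control, the 3 without high rat 25 and the 1 for high minus control without control rat 17. The cause was not tested. The Dixon ratios of B2m and Stat2 passed the limit after quantile normalization (0.533 and 0.51) and centring (0.612 and 0.604). That of class I presentation in rat 12 did not (0.483 and 0.476). With Plac8 left out, also chosen after seeing the data, the neutrophil and monocyte mean of low rat 5 was -0.048 log2 from the mean of the other low-diet rats. No paired analysis was possible because subject numbers are not shared between diets. Cage as a random block (consensus correlation 0.0787) called 0 members.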
